A study of Mus musculus with 24 samples.

Results

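Restimulation with LPS was examined in Irg1-/- bone marrow-derived macrophages (BMDMs) that had already received LPS for 24 h. The comparison was made up of 6 of the 24 libraries of the series, chosen by their sample labels: 3 cultures of the genotype Irg1 KO labelled 24h_LPS/3h_LPS (LPS 24h->LPS 3h) against 3 cultures labelled 24h_LPS (LPS 24h). Both groups lacked Irg1 (gene symbol Acod1) from the start of culture, so neither could make itaconate. All 11878 genes that passed the filter on low counts were tested, and 32 lists of genes with a shared role are described below.

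BMDMs were grown for 7 days in M-CSF from the marrow of mice aged 8 to 20 weeks on the C57BL/6N background. LPS was used at 100 ng/ml. The LPS 24h cells were harvested directly, whereas the restimulated cells had their medium changed, rested for 1 h and then received LPS for another 3 h. The medium change, the rest, the extra hours in culture and the second LPS therefore cannot be told apart in this comparison. For reference, the WT cells of the same treatments (3 and 3 cultures) and the Irg1-/- cells that were unstimulated or received a first LPS for 3 h (3 and 3 cultures) were used. The LPS 3h cells went through the same handling as the restimulated cells but without the first LPS. The number of mice behind the cultures is not given in the sources used here, so the p-values measure the spread between cultures.

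LPS is sensed by TLR4 with its partners CD14 and MD-2. The adaptor MyD88 leads to NF-κB and to the MAP kinases, which drive early cytokine and chemokine genes, and the adaptors TRAM and TRIF lead to interferon-β and to the genes that interferon induces. Macrophages that have met LPS once answer a second dose with part of these genes only, a state known as endotoxin tolerance. Irg1 encodes the mitochondrial enzyme that makes itaconate from cis-aconitate of the TCA cycle, and cell-permeable derivatives of itaconate are known to modify cysteines of regulatory proteins, among them KEAP1, the inhibitor of the transcription factor NRF2.

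Between 12224652 and 20430359 reads were counted on genes in the 6 libraries, and 11911 to 13048 genes had at least 1 read. The reads come from the ends of polyadenylated transcripts and carry no molecular identifier, so counting intervals and limits cover counting error only. Levels are given as CPM (counts scaled to a common library size) scaled with edgeR's TMM factors, which were 0.979 to 1.04 in the restimulated and 1.15 to 1.17 in the LPS 24h libraries. Acod1 was at 11.5, 8.20 and 6.54 CPM in LPS 24h cultures 1, 2 and 3 and at 16.7, 11.2 and 14.1 CPM in the restimulated cultures. In WT cultures of the same treatments it was at 3793, 4014 and 5792 CPM and 11386, 10378 and 16118 CPM, so all 6 Irg1-/- libraries matched their genotype label. All 10 macrophage markers were detected. Their summed level was 8421 to 10812 CPM after LPS 24h and 7645 to 9356 CPM after restimulation. Of these 10 markers 1 (Cd14) was called higher and 3, among them Mertk and Fcgr1, were called lower. Over all genes tested 3.44% were called higher and 1.70% lower. T cell, B cell, dendritic cell and mast cell or basophil markers were detected in part and at low levels, with summed levels of at most 10.0 CPM. Mast cell or basophil markers summed to 0.140 to 0.541 CPM after LPS 24h and 2.04 to 3.34 CPM after restimulation, without overlap. The T cell and dendritic cell sums were lower after restimulation without overlap, and the B cell sums overlapped. No erythroid marker passed the filter on low counts, so they have no summed level. Neutrophil markers summed to 143 to 214 CPM after LPS 24h and 65.1 to 104 CPM after restimulation, without overlap, and fibroblast markers to 166 to 192 and 103 to 159 CPM. In bulk RNA, fewer cells of a type and less RNA per cell cannot be told apart, and the part of these cells in the results below was not tested.

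More genes were higher than lower after the second LPS. Of the 11878 genes tested, 611 differed between restimulated and LPS 24h cultures (5.14%) at an adjusted p under 0.05 in edgeR's quasi-likelihood test. Of these, 409 were higher (3.44%) and 202 were lower (1.70%). The median log2 fold change was 1.68 among the higher and -1.53 among the lower genes, against -0.07 over all genes tested. The 3 cultures of each group did not overlap for 12.7% of all genes in the higher and 15.5% in the lower direction, called or not. Among the higher genes, 145 exceeded a log2 fold change of 2 and 55 exceeded 3, and among the lower genes 45 and 9 fell below -2 and -3. Cultures 2 and 3 of the restimulated group were in the same library pool as the 3 LPS 24h cultures, and culture 1 was in another. A fit of the 5 libraries of the shared pool alone called 856 genes, 564 higher and 292 lower, and 521 of the 611 were among them. Of the named genes, Ccl2, P2rx7, Ifit3, Mx1, Tgtp2, Srxn1, Cebpb, Entpd1, Mcm6 and H2-T23 lost their calls there. Leaving out 1 culture at a time gave 370 to 442 genes, with 254 to 347 higher and 79 to 136 lower. The lower count in particular leaned on single cultures: it was 95, 79 and 105 without restimulated cultures 1, 2 and 3 and 136, 116 and 113 without LPS 24h cultures 1, 2 and 3. The higher count was 254 without LPS 24h culture 2, and the share of higher genes among those called went from 66.9% to 68.5% to 80.5%. Testing only these 6 libraries gave 1080 genes, of which 626 were higher and 454 lower.

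**Figure D1:**
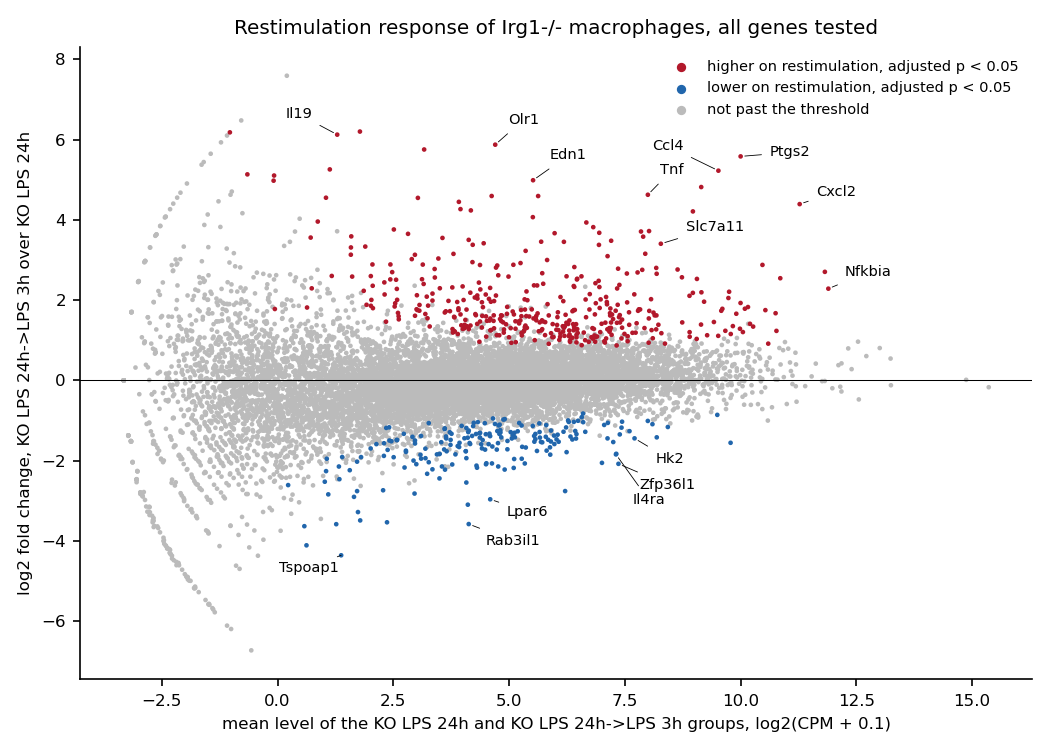
Each point is a gene tested in Irg1-/- BMDMs, with its mean level over the LPS 24h and LPS 24h->LPS 3h groups on the x axis as log2(CPM + 0.1) and its log2 fold change on the y axis. Red points are the 409 genes higher and blue points the 202 genes lower on restimulation at an adjusted p under 0.05; the genes with labels reach 5.58 (Ptgs2) among highly expressed genes, and the fallers lie mostly between -1 and -3.

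Promoter sequence was available for part of these genes and is shown first, since the groups described below are known to be driven through short motifs near the start of their genes. RefSeq promoters (GRCm38.p6) were matched for 103 of the 131 named genes, and 6 motifs were searched on both strands in the 250 bases before the first listed start of each gene. The κB motif was searched as GGG, any 2 bases and TTTCC, the AP-1 motif as TGANTCA, the cAMP response element as TGACGTCA, the interferon-stimulated response element as TTTC, any 2 bases and TTTC, the antioxidant response element as TGACNNNGC and the metal response element as TGCNCNC. The κB letters stood in 1.42% of the 9360 promoters of genes tested, 3.38% of 325 promoters of genes higher on restimulation, 7.21% of 111 promoters of genes with a log2 fold change over 2 among them, and 1.84% of 163 promoters of genes lower. The AP-1 letters stood in 4.32%, 8.62%, 14.4% and 4.91% of the same promoters. The interferon-response letters stood in 2.91% of all promoters, 3.38% of those higher, 5.41% of those higher by a log2 value over 2 and 4.29% of those lower. For the other motifs the shares among higher genes were 1.54% (cAMP), 13.5% (antioxidant) and 49.5% (metal), against 2.79%, 12.2% and 52.0% of all promoters. Among higher genes the κB and AP-1 shares were well above those of all promoters, the interferon-response and antioxidant shares slightly above and the cAMP and metal shares below. These shares are a description with no test.

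The 9 promoters below were picked after the search because each holds a match, and so do not speak for the named genes as a whole. Of Tnf, Il1b, Nlrp3, Ptgs2, Edn1, Slc7a11, Txnrd1 and Srxn1, which are described below, none held the κB or cAMP letters, Srxn1 alone held AP-1 letters, and Edn1 alone held antioxidant and interferon-response letters. A match is not a shown binding site, and a missing match says nothing of the factor. Only the match to the named motif is in capitals, on either strand, and each sequence runs 5′ to 3′ on the strand of its gene and ends at the base before the start. The first 5 hold the κB letters, Olr1 and F3 the AP-1 letters, and Ifit3 and Tgtp2 the interferon-response letters; the 7 first genes rose on restimulation and the last 2 fell.
Cxcl1 (chr5:90890995-90891244, plus strand): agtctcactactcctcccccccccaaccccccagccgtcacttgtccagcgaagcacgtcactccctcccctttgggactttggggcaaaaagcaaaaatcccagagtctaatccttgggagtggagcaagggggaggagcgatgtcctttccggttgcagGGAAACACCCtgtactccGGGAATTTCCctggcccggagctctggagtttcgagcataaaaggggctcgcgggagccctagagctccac
Cxcl2 (chr5:90903649-90903898, plus strand): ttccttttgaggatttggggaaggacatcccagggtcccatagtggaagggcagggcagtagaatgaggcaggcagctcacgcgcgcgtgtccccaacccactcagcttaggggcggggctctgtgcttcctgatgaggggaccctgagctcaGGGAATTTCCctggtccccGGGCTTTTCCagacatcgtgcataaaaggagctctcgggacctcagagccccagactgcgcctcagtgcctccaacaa
Il6 (chr5:30012864-30013113, plus strand): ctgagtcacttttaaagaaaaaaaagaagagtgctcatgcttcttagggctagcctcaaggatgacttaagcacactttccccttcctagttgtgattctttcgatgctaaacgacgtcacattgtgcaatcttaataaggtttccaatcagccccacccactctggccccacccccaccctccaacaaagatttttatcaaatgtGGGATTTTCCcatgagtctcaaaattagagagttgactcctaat
Nfkbia (chr12:55492648-55492897, minus strand): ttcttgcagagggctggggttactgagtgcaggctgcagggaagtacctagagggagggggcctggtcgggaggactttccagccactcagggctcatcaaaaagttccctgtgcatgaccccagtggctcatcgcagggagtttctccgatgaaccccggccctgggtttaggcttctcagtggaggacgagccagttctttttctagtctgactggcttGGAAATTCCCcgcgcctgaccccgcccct
Tnfaip3 (chr10:19015411-19015660, minus strand): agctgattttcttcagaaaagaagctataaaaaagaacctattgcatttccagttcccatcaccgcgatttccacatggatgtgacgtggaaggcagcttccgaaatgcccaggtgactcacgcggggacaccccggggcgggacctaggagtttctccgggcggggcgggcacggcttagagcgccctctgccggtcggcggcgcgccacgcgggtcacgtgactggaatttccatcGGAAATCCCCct
Olr1 (chr6:129507166-129507415, minus strand): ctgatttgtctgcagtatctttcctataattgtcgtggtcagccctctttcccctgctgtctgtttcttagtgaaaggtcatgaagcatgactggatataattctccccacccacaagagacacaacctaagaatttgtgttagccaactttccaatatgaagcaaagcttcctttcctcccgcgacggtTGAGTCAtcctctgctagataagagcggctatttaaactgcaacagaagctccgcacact
F3 (chr3:121723287-121723536, plus strand): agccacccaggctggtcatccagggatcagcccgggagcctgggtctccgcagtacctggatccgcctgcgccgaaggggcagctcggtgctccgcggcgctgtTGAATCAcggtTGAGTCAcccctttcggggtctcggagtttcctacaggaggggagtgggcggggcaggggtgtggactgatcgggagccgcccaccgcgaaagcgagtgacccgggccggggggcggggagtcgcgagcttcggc
Ifit3 (chr19:34583279-34583528, plus strand): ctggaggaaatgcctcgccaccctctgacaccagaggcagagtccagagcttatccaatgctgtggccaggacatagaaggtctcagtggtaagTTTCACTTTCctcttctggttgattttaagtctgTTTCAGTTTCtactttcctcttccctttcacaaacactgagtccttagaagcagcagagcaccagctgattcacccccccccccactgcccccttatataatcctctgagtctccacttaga
Tgtp2 (chr11:49064213-49064462, minus strand): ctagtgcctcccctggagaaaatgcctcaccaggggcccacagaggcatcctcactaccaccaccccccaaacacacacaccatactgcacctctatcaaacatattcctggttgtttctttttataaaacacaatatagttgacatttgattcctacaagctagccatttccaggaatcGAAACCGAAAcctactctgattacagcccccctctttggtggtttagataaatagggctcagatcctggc

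Genes for secreted inflammatory mediators had the highest median of the 32 lists. Of 21 proinflammatory cytokines tested, 13 were higher and 1, Il18, was lower, with a median log2 fold change of 2.62 against -0.07 over all genes. Tnf, which encodes the cytokine TNF, was at 23.6, 23.1 and 13.1 CPM after LPS 24h and 428, 592 and 454 CPM after restimulation. The groups stood apart, and the log2 fold change was 4.62 with an SE of 0.392 and an adjusted p of 1.60e-09. Il6, a cytokine of the acute-phase response, was at 1.01, 1.47 and 2.80 CPM after LPS 24h and 43.4, 21.9 and 37.3 CPM after restimulation. Its log2 fold change was 4.23 with an SE of 0.568 and an adjusted p of 4.92e-06, and the lowest restimulated culture was far above the highest LPS 24h culture. Il1b, the precursor of IL-1β, was at 299.7, 399 and 324 CPM after LPS 24h and 2561, 2754 and 2193 CPM after restimulation (log2 fold change 2.88, SE 0.321, adjusted p = 2.44e-07). Restimulated cultures were thus close to each other for Il1b and all above the LPS 24h cultures. Edn1, which encodes the vasoconstrictor endothelin, was at 3.92, 1.96 and 2.50 CPM after LPS 24h and 64.4, 95.3 and 106 CPM after restimulation (log2 fold change 4.99, SE 0.433, adjusted p = 1.60e-09). Lif, a cytokine of the IL-6 family, and Il12b, the shared subunit of IL-12 and IL-23, rose by 4.55 and 2.62 on the log2 scale. Csf3, a growth factor for neutrophils, was called at 5.26 but stood at only 0.135, 0.0701 and 0.0849 CPM after LPS 24h and 2.12, 6.02 and 4.10 CPM after restimulation. Its call was lost in 5 of the 6 fits that left out 1 culture, with an adjusted p of up to 0.108; leaving out any culture except restimulated culture 1 ended it. The remaining higher members were Il1a, Il12a, Il27, Inhba, Osm and Tnfsf15. Il23a had a value of 3.28 and did not pass the test.

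Il10, the chief anti-inflammatory cytokine of macrophages, rose with them. It was at 2.84, 1.26 and 1.44 CPM after LPS 24h and 22.3, 23.4 and 19.1 CPM after restimulation (log2 fold change 3.55, SE 0.515, adjusted p = 1.91e-05). It was the only one of 7 anti-inflammatory cytokines and decoys that passed the test, and the median of that list was 0.59. Il19, a cytokine of the IL-10 family, was nearly absent before restimulation, at 0.0676, 0 and 0.0849 CPM after LPS 24h and 7.15, 3.19 and 3.57 CPM after restimulation. The ratio of its normalized levels was 81.5, with a 95% counting interval of 27.5 to 399, and its adjusted p was 1.29e-05.

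Chemokine genes of both the CXC and the CC family rose in part. Of 11 CXC chemokines 5 were higher and none lower, with a median of 0.97. Cxcl2, a ligand of the neutrophil receptor CXCR2, was at 277, 217 and 184 CPM after LPS 24h and 3840, 5445 and 4932 CPM after restimulation (log2 fold change 4.39, SE 0.342, adjusted p = 2.53e-10). Cxcl1, another ligand of that receptor, was at 12.4, 20.1 and 5.18 CPM after LPS 24h and 237, 203 and 134 CPM after restimulation (log2 fold change 3.93, SE 0.479, adjusted p = 9.24e-07). For both genes the lowest restimulated culture exceeded the highest LPS 24h culture severalfold, and both hold the κB letters printed above. Cxcl3 and the interferon-inducible Cxcl10 rose by 3.00 and 2.66. Cxcl11, which is annotated as a polymorphic pseudogene in the mouse genome, was called at 1.75. Leaving out any one of restimulated culture 3, LPS 24h culture 2 and LPS 24h culture 3 ended that call. Of 13 CC chemokines 4 were higher and none lower, with a median of 0.84. Ccl4 and Ccl3 encode macrophage inflammatory proteins. Ccl4 was at 47.7, 35.4 and 31.9 CPM after LPS 24h and 1675, 1506 and 1115 CPM after restimulation (log2 fold change 5.22, SE 0.369, adjusted p = 6.14e-11), and Ccl3 was at 45.4, 40.3 and 31.3 CPM after LPS 24h and 1303, 1200 and 792 CPM after restimulation (log2 fold change 4.82, SE 0.365, adjusted p = 1.88e-10). Both neighbouring genes (Ccl4 on chromosome 11 from 83662584 to 83664683, plus strand, and Ccl3 on chromosome 11 from 83647844 to 83649355, minus strand, mm10) thus differed by a similar factor, without overlap between groups. The monocyte chemokines Ccl2 and Ccl7 were called at smaller values, 1.38 and 1.27. The call of Ccl2 was lost without any one of restimulated culture 1, LPS 24h culture 2 and LPS 24h culture 3, and that of Ccl7 without LPS 24h culture 2, so the list held 2 higher members without LPS 24h culture 2. Cxcl5 (0.97), Ccl5 (-0.20), Ccl9 (0.54) and Ccl22 (0.84) did not pass.

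**Figure D2:**
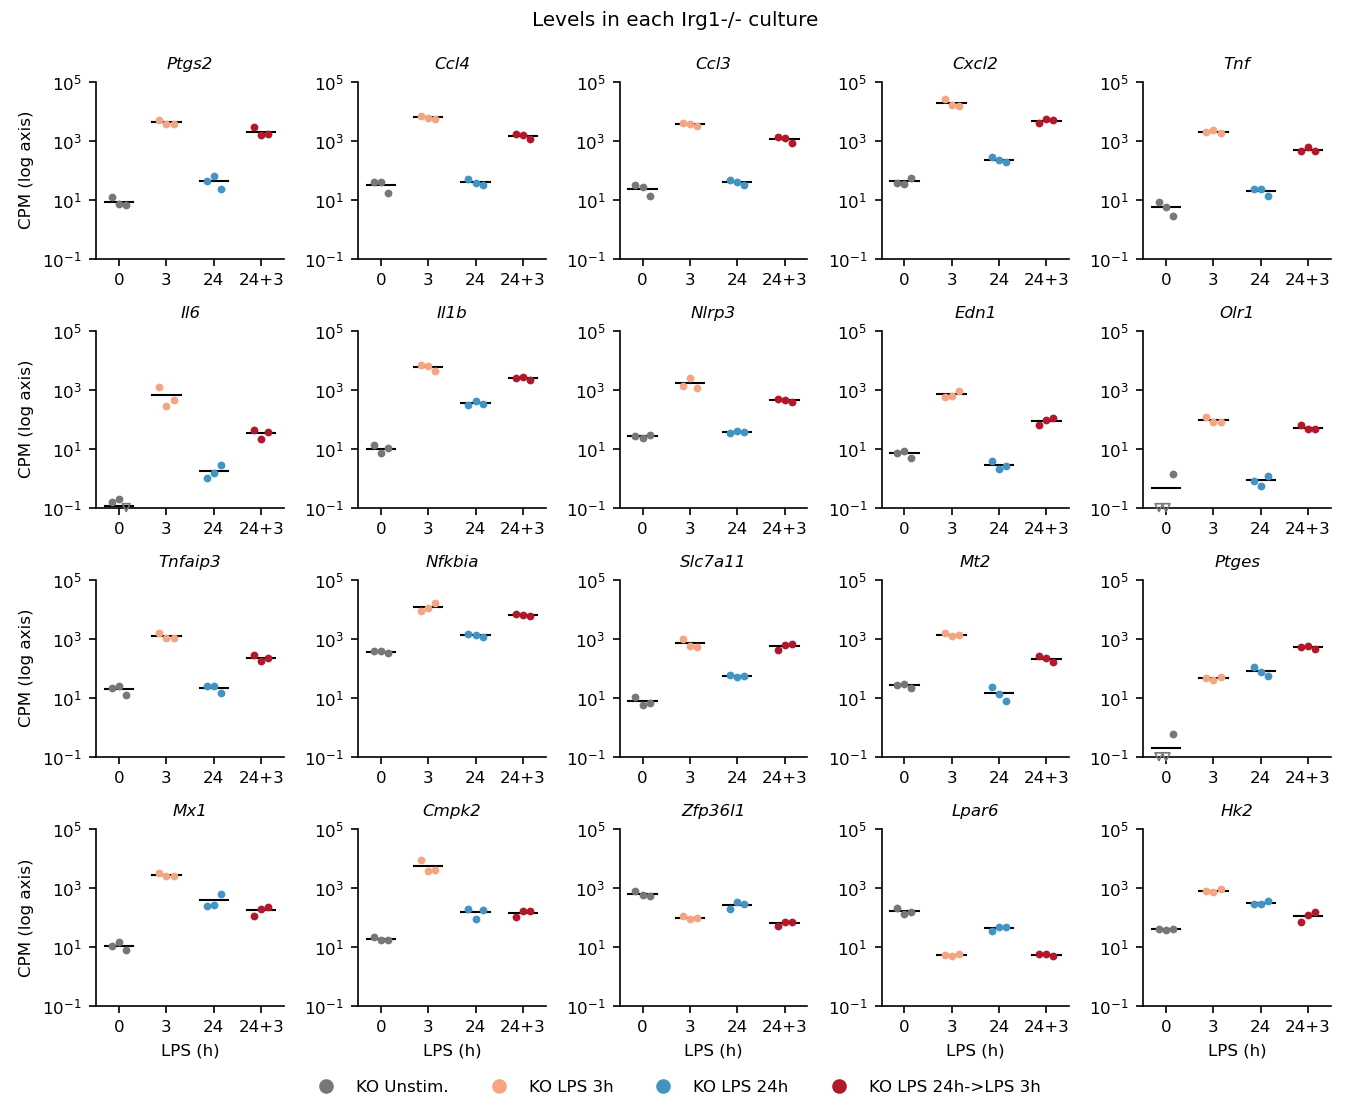
Levels in CPM (log axis) of 20 named genes in each Irg1-/- culture, with the hours of LPS on the x axis (0, 3, 24 and 24+3) and 3 cultures a group. Points are cultures and horizontal bars are group means; open triangles at the bottom are values under 0.1 CPM. For Ptgs2, Ccl4, Tnf, Il6 and Il1b all 24+3 cultures sit above all 24 h cultures and below all 3 h cultures, whereas Mx1, Zfp36l1, Lpar6 and Hk2 sit lower after restimulation than at 24 h and Cmpk2 overlaps.

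The genes of the NF-κB pathway itself and its inhibitors rose as well. Of 15 genes for NF-κB subunits, IκB proteins and IκB kinases with a regulatory subunit, 8 were higher and none lower, with a median of 1.401. The 8 are Rel, Relb, Nfkb1, Nfkb2, Nfkbia, Nfkbib, Nfkbid and Nfkbiz. Nfkbia encodes IκBα, which holds NF-κB in the cytosol, and was at 1412, 1320 and 1167 CPM after LPS 24h and 6995, 6111 and 5879 CPM after restimulation (log2 fold change 2.28, SE 0.279, adjusted p = 9.36e-07). Rel, a subunit of NF-κB, was at 32.6, 36.6 and 40.9 CPM after LPS 24h and 189.6, 177 and 223 CPM after restimulation (log2 fold change 2.42, SE 0.298, adjusted p = 1.08e-06). In each of these genes the 3 restimulated cultures lay close together and above the LPS 24h cultures. Nfkb1, Nfkbiz and Nfkb2 rose by 2.14, 2.11 and 1.75. The kinase genes Chuk, Ikbkb and Ikbke and the regulatory subunit gene Ikbkg did not pass the test.

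Among 22 regulators of TLR signalling, listed under feedback inhibitors, 9 were higher and 1 was lower, with a median of 0.90. Tnfaip3, which encodes the ubiquitin-editing enzyme A20, was at 25.2, 25.2 and 14.4 CPM after LPS 24h and 283, 176 and 214 CPM after restimulation (log2 fold change 3.38, SE 0.435, adjusted p = 2.39e-06). The RNase gene Zc3h12c, the ubiquitin ligase gene Peli1 and the cytokine signalling inhibitor Socs1 rose by 2.78, 2.18 and 1.96. The member that fell was Zfp36l1, whose protein destabilizes AU-rich mRNAs. Zfp36l1 was at 189, 336 and 274 CPM after LPS 24h and 52.2, 69.6 and 67.0 CPM after restimulation (log2 fold change -2.08, SE 0.334, adjusted p = 8.39e-05). Its close relative Zfp36 rose by 1.25. Irak3, an inhibitory kinase linked with endotoxin tolerance, had a value of 0.41 and did not pass.

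Of 31 immediate early and AP-1 factors, 7 were higher and none lower, with a median of 0.96. Egr1, a zinc finger factor induced within minutes by MAP kinase signals, was at 1.35, 0.771 and 0.934 CPM after LPS 24h and 11.0, 15.8 and 11.8 CPM after restimulation (log2 fold change 3.65, SE 0.449, adjusted p = 1.04e-06). Maff, a small Maf protein, was at 5.002, 4.21 and 2.08 CPM after LPS 24h and 55.3, 31.8 and 32.3 CPM after restimulation (log2 fold change 3.42, SE 0.379, adjusted p = 2.32e-07). Klf6 and Junb rose by 1.75 and 1.57, and Bhlhe40, called at 1.61, lost its call in 4 of 6 fits without 1 culture (without any one of restimulated culture 1, LPS 24h culture 1, LPS 24h culture 2 and LPS 24h culture 3). Fos (-0.47), Jun (-0.76) and Atf3 (0.16) did not pass the test 3 h after the second LPS. Of 11 MAP kinase phosphatases 3 were higher, with a list median of 1.31. Dusp4 was at 12.6, 7.85 and 7.30 CPM after LPS 24h and 144, 117 and 90.8 CPM after restimulation (log2 fold change 3.67, SE 0.356, adjusted p = 1.82e-08), and Dusp16 and Dusp5 rose by 2.67 and 1.62. The restimulated cultures of Dusp4 were all several times above the LPS 24h cultures.

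Inflammasome genes split into 1 that rose and several that were lower. Nlrp3, the sensor that the study stimulates, was at 34.0, 41.0 and 35.3 CPM after LPS 24h and 481, 454 and 384 CPM after restimulation (log2 fold change 3.58, SE 0.449, adjusted p = 1.44e-06). The groups did not overlap and each of the 6 fits without 1 culture kept the call. Of the 19 inflammasome and pyroptosis genes tested it was the only one that rose, while 4 were lower and the list median was -0.40. Pycard, which encodes the adaptor ASC, was at 53.7, 74.1 and 60.2 CPM after LPS 24h and 24.2, 32.0 and 29.4 CPM after restimulation (log2 fold change -1.14, SE 0.276, adjusted p = 0.00932). Il18, which encodes a caspase-1 substrate, was at 25.9, 50.7 and 27.7 CPM after LPS 24h and 18.4, 9.28 and 12.1 CPM after restimulation (log2 fold change -1.39, SE 0.399, adjusted p = 0.0341). Nlrp1b, another sensor, and P2rx7, the ATP-gated channel used to trigger NLRP3, fell, with log2 fold changes of -2.13 and -0.95. All 4 lower calls depended on single cultures: the list held 1 lower member without restimulated culture 1, restimulated culture 2 or LPS 24h culture 2. P2rx7 lost its call in 6 of 6 such fits, Il18 in 4 (without any one of restimulated culture 2, restimulated culture 3, LPS 24h culture 2 and LPS 24h culture 3), and Pycard and Nlrp1b in 2 each (without either of restimulated culture 1 and LPS 24h culture 2 for Pycard, and of restimulated culture 1 and restimulated culture 2 for Nlrp1b). Nlrp1b belongs to a family of similar copies, so its reads are uncertain. Casp1 and Gsdmd, the protease and the pore protein of pyroptosis, had overlapping groups. Casp1 was at 269, 86.2 and 224 CPM after LPS 24h and 169, 296 and 201 CPM after restimulation (log2 fold change 0.20, SE 0.370, adjusted p = 0.889), and Gsdmd had a value of -0.50 with an adjusted p of 0.455. Leaving out restimulated culture 2 or LPS 24h culture 2 turned the sign of Casp1, to -0.02 and -0.12.

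Lipid mediator synthesis held the largest increase among genes with a mean over 100 CPM after restimulation. Ptgs2 encodes cyclooxygenase-2 (chromosome 1 from 150100031 to 150108227, plus strand, mm10) and was at 43.4, 60.6 and 22.2 CPM after LPS 24h and 2825, 1481 and 1721 CPM after restimulation (log2 fold change 5.58, SE 0.484, adjusted p = 1.60e-09). Ptges, which encodes the prostaglandin E synthase that works with it, was at 110.2, 73.7 and 56.0 CPM after LPS 24h and 535, 545 and 430.1 CPM after restimulation (log2 fold change 2.65, SE 0.374, adjusted p = 1.23e-05). These were the only 2 of 15 prostaglandin and leukotriene genes to pass the test, and the list median was 0.00; Ptgs1, the constitutive enzyme, had a value of -0.79. Arginine uptake and tetrahydrobiopterin synthesis also held increases. Of 14 genes, 4 were higher (Slc7a2, Slc7a1, Gch1 and Odc1) and none lower. Slc7a2, an arginine transporter, was at 116, 73.3 and 284 CPM after LPS 24h and 1409, 711 and 606 CPM after restimulation (log2 fold change 2.53, SE 0.530, adjusted p = 0.00236), with a wide spread in both groups. Gch1, which opens tetrahydrobiopterin synthesis, rose by 1.63. Odc1, called at 1.31, lost its call without any one of restimulated culture 1, restimulated culture 2, LPS 24h culture 1 and LPS 24h culture 3. Nos2, the inducible nitric oxide synthase, was at 61.2, 37.3 and 96.9 CPM after LPS 24h and 58.9, 82.9 and 64.5 CPM after restimulation and its groups overlapped (log2 fold change 0.08, SE 0.467, adjusted p = 0.974); its sign turned without restimulated culture 2 or LPS 24h culture 2.

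Genes of redox and metal handling rose in part. Of 21 NRF2 targets 3 were higher and none lower, with a list median of 0.01. Slc7a11, the cystine transporter subunit that feeds glutathione synthesis, was at 58.5, 48.4 and 53.9 CPM after LPS 24h and 408, 608 and 686 CPM after restimulation (log2 fold change 3.40, SE 0.337, adjusted p = 2.26e-08). Txnrd1, thioredoxin reductase, was at 191, 144 and 394 CPM after LPS 24h and 944, 819 and 1069 CPM after restimulation (log2 fold change 1.96, SE 0.330, adjusted p = 1.60e-04). The third, Srxn1, was called at 1.06 and lost its call in 4 of 6 fits without 1 culture (without any one of restimulated culture 1, restimulated culture 2, LPS 24h culture 2 and LPS 24h culture 3). Hmox1, Nqo1 and Gclm, which are commonly used as NRF2 readouts, did not pass, at 0.01, -0.47 and 0.19. Hmox1 was at 213, 235 and 144 CPM after LPS 24h and 276, 179 and 142 CPM after restimulation, with overlapping groups, and its sign turned with the pool as a term, within the shared pool, with a replicate block and without restimulated culture 1 or LPS 24h culture 3. The metallothionein genes Mt1 and Mt2, whose small proteins bind zinc and copper, also rose. Mt2 was at 23.4, 13.5 and 8.03 CPM after LPS 24h and 259, 215 and 158 CPM after restimulation (log2 fold change 3.82, SE 0.460, adjusted p = 7.57e-07). Mt1 rose by 3.15 (adjusted p = 3.14e-07). Of the 10 metallothionein and zinc transporter genes tested 3 were higher and 1 lower; the others called were the exporter Slc30a1 (1.62, a call lost without either of restimulated culture 1 and LPS 24h culture 2) and the importer Slc39a10 (-2.07). Of 22 genes of the integrated stress response, Ppp1r15a rose by 1.54 and Cebpb was called at 1.66, a call lost without either of restimulated culture 1 and LPS 24h culture 3.

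Sterol genes showed scattered changes. Ch25h, which makes 25-hydroxycholesterol, was at 1.35, 2.03 and 0.637 CPM after LPS 24h and 32.6, 26.2 and 27.1 CPM after restimulation (log2 fold change 4.45, SE 0.670, adjusted p = 3.53e-05). Hmgcs1, an early enzyme of cholesterol synthesis, rose by 2.00. Idi1 was called at 2.28 and lost its call in 5 of 6 fits without 1 culture, that is, with any culture except restimulated culture 2 left out. Both were among the 3 called of 24 cholesterol synthesis and uptake genes, whose median was 0.12. Of 13 genes of cholesterol efflux and LXR targets, Ch25h was the 1 that rose and Abcg1 the 1 that was lower. The exporter gene Abcg1 stood at -0.92, a call that any of the 6 left-out cultures ended.

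Calls in central carbon metabolism were in the glycolysis list only. Of 26 glycolysis genes 2 were higher (7.69%) and 1 was lower (3.85%), with a median of -0.31. Over all genes tested 3.44% were higher and 1.70% lower. Hk2, which encodes the inducible hexokinase, was at 284, 274 and 361 CPM after LPS 24h and 68.1, 115 and 154 CPM after restimulation (log2 fold change -1.45, SE 0.274, adjusted p = 7.63e-04). Its call held without any single culture. The calls of Pfkp (1.07) and of the transporter Slc2a6 (1.47) did not: any left-out culture ended the first and LPS 24h culture 3 the second. No gene passed the test among 24 of the TCA cycle (median -0.10), 30 of ribosome biogenesis (0.01), 29 of lysosomal hydrolases and the proton pump (0.09) and 12 of iron handling (0.03) in edgeR's test. The numbers of these genes with an unadjusted p under 0.05 were 1, 6, 4 and 2, and DESeq2 called 0, 1, 0 and 1. With 3 cultures a group, changes in these genes could go uncalled. Of 32 cell cycle genes 2 were higher (Mki67 and Tyms) and 1 was lower (Mcm6). The median of this list was -0.60, the lowest of the 32 lists. Each of the 3 calls was ended by at least 1 left-out culture. These were either of restimulated culture 3 and LPS 24h culture 2 for Tyms, any except LPS 24h culture 3 for Mki67 and any of the 6 for Mcm6.

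Several regulators of cell survival rose. Of 27 apoptosis regulators 8 were higher and none lower, although the list median was -0.11. Traf1, an adaptor of TNF receptors, was at 41.4, 37.7 and 31.0 CPM after LPS 24h and 476, 468 and 507 CPM after restimulation (log2 fold change 3.72, SE 0.370, adjusted p = 2.36e-08). Bcl2a1d and Bcl2a1b, members of a family of near-identical BCL-2 relatives whose reads can be split between copies, rose by 3.76 and 2.14. The stress genes Gadd45a and Gadd45b rose by 2.02 and 1.61, and Birc3, Cflar and Tnfrsf1b rose by 0.88, 1.20 and 1.35. The other 19, among them Bax (-0.24) and Bak1 (-0.23), did not pass.

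Interferon-induced genes did not follow the cytokines. Of 33 type I interferon targets 1 was higher, 3 were lower and 29 did not pass, with a median of -0.34. Ifi205, a DNA-sensing family member with close paralogs, was at 50.4, 45.3 and 65.7 CPM after LPS 24h and 341, 224 and 275 CPM after restimulation (log2 fold change 2.38, SE 0.416, adjusted p = 2.81e-04). Mx1, an antiviral GTPase, was at 249, 262 and 608 CPM after LPS 24h and 112, 189 and 224 CPM after restimulation (log2 fold change -1.09, SE 0.333, adjusted p = 0.0494). Ifit3, which encodes an RNA-binding antiviral protein, was at 355, 142 and 117 CPM after LPS 24h and 62.0, 58.4 and 104 CPM after restimulation (log2 fold change -1.45, SE 0.397, adjusted p = 0.0252). The restimulated cultures of both lay below all LPS 24h cultures, but the distance to the nearest one was small beside the spread. Phf11b was also lower, at -1.34. Without restimulated culture 1 or without restimulated culture 2 none of the 3 lower calls was left; Ifit3 lost its call without any one of restimulated culture 1, restimulated culture 2 and LPS 24h culture 1, Mx1 without any one culture except LPS 24h culture 1, and Phf11b without any one culture except LPS 24h culture 3. The call of Mx1 was also lost with DESeq2's size factors, with only the groups compared, with the filter at a mean count of 10, with a replicate block, with the pool as a term and in the shared pool alone. Cmpk2 and Oasl1 did not pass, at -0.11 and 0.25, with adjusted p-values of 0.944 and 0.828, and the sign of Cmpk2 turned within the shared pool and without any one of restimulated culture 1, LPS 24h culture 1 and LPS 24h culture 3. Of 17 guanylate-binding proteins, IRGs and their regulators only Tgtp2, from a family of similar GTPase genes, was called, at -2.26, and restimulated culture 2 and LPS 24h culture 2 each ended that call when left out. The list median was -0.49. Ifitm7, an interferon-inducible transmembrane gene outside these lists, was among the strongest increases, at 0.338, 0.420 and 0.212 CPM after LPS 24h and 12.1, 13.3 and 26.9 CPM after restimulation (log2 fold change 5.75, SE 0.663, adjusted p = 6.36e-07).

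**Figure D3:**
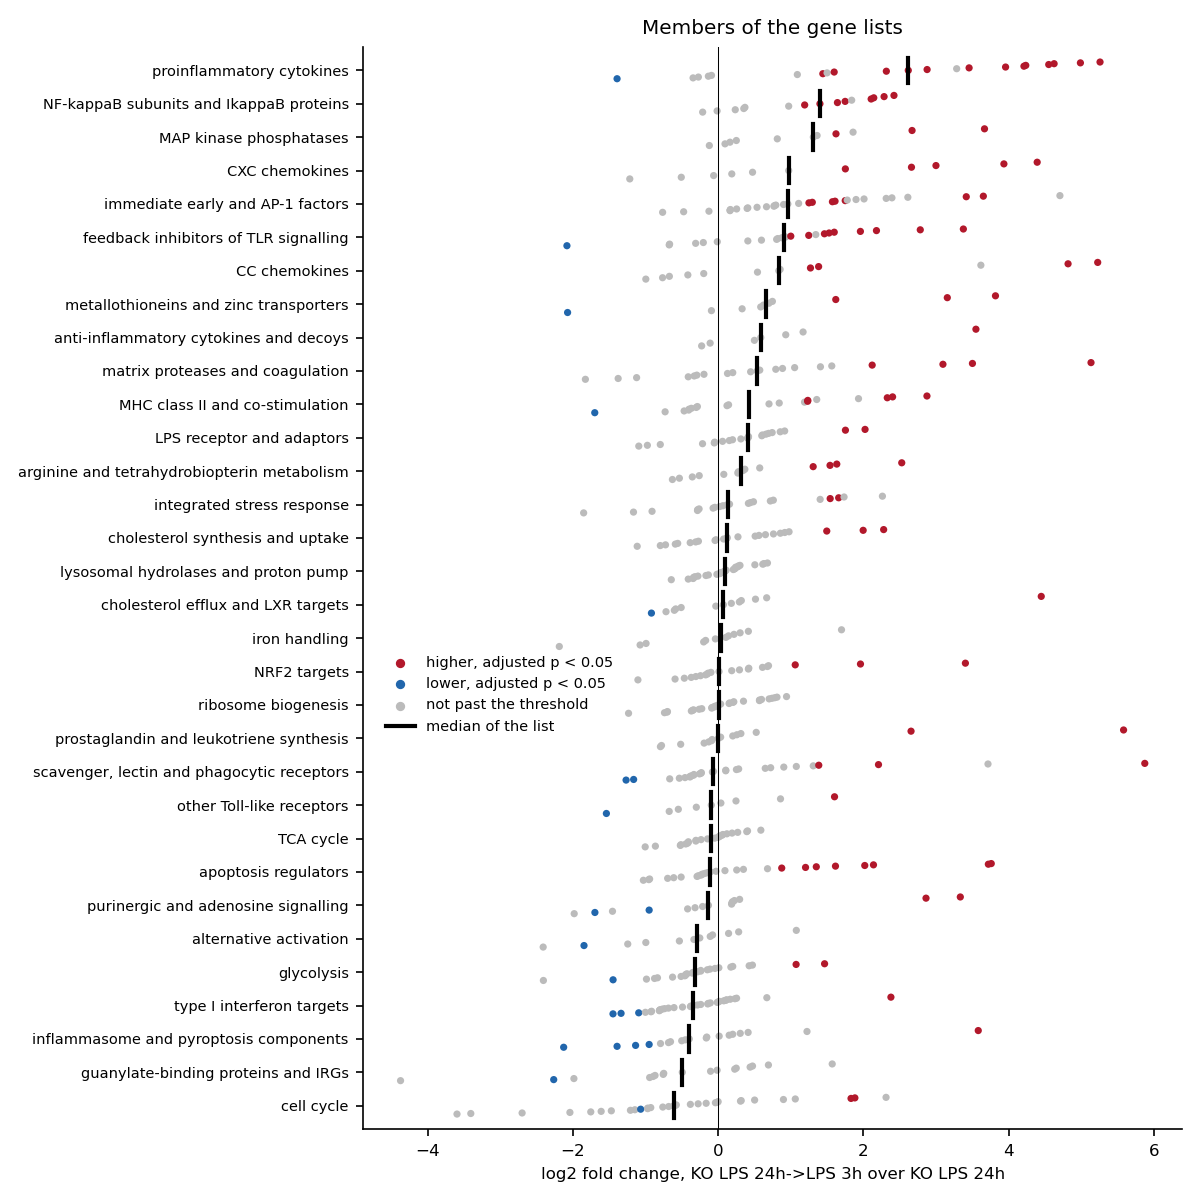
Log2 fold change of each tested member of the 32 gene lists (x axis), one list per line, ordered by the list median (black bar). Red and blue points passed the test as higher or lower; proinflammatory cytokines have the highest median (2.62), while type I interferon targets (-0.34), inflammasome components (-0.40) and cell cycle genes sit below 0.

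Shares of sensing genes called higher were above the 3.44% of all genes tested. They were 9.09% of LPS receptor and adaptor genes and 11.1% of other Toll-like receptor genes. Of 22 LPS receptor and adaptor genes 2 were higher: Cd14, at 105, 128 and 85.0 CPM after LPS 24h and 579.6, 407 and 305 CPM after restimulation (log2 fold change 2.02, SE 0.344, adjusted p = 1.81e-04), and Ticam2, which encodes TRAM, at 18.2, 17.6 and 16.7 CPM after LPS 24h and 54.3, 66.2 and 56.4 CPM after restimulation (log2 fold change 1.75, SE 0.319, adjusted p = 4.64e-04). Tlr4 itself (-0.97), Ly96 (0.20) and Myd88 (0.31) did not pass. Of 9 other Toll-like receptor genes, 1 was higher and 1 lower: Tlr2, the receptor for lipopeptides, rose by 1.60, and Tlr8 was lower at -1.54, a call lost without LPS 24h culture 2, which alone held 378 CPM.

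Surface receptors and co-stimulators gave 5 higher and 1 lower of 20 genes. Cd69, an early activation marker, and Cd83, a maturation marker, rose by 2.87 and 2.40. Cd40, the co-stimulatory receptor for T cell help, was at 31.1, 28.4 and 25.1 CPM after LPS 24h and 146, 142 and 137 CPM after restimulation (log2 fold change 2.33, SE 0.379, adjusted p = 1.01e-04). The adhesion receptor Cd44 was called at 1.23 but not without LPS 24h culture 3, and Slamf7 was higher at 1.23. Cd80 was lower at -1.70, a call lost in 5 of 6 fits without 1 culture (any except LPS 24h culture 1). The MHC class II genes of this list lay between -0.73 (H2-Eb1) and -0.29 (H2-Ab1) and none passed. Among 28 scavenger, lectin and phagocytic receptors 3 were higher and 2 lower. Olr1, the lectin-like receptor for oxidized LDL, was at 0.811, 0.561 and 1.15 CPM after LPS 24h and 61.6, 45.8 and 45.7 CPM after restimulation (log2 fold change 5.87, SE 0.672, adjusted p = 3.48e-07), an increase without overlap from levels near 1 CPM. Clec4e, which encodes the mycobacterial glycolipid sensor Mincle, was at 366, 337 and 219.5 CPM after LPS 24h and 1364, 1872 and 1020 CPM after restimulation (log2 fold change 2.21, SE 0.339, adjusted p = 4.45e-05). The complement receptor C5ar1 rose by 1.39. Mertk, which binds apoptotic cells, fell from 211, 289.6 and 323 CPM to 105, 116 and 121 CPM (log2 fold change -1.27, SE 0.274, adjusted p = 0.00332). Fcgr1 was lower at -1.16, a call that any left-out culture ended.

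Genes of matrix, coagulation and purine signals included strong increases. Of 21 matrix and coagulation genes 4 were higher. Serpinb2, an inhibitor of plasminogen activators, was at 4.73, 2.59 and 1.23 CPM after LPS 24h and 40.3, 33.3 and 22.2 CPM after restimulation (log2 fold change 3.50, SE 0.599, adjusted p = 2.01e-04). The collagenase gene Mmp13 and the urokinase receptor gene Plaur rose by 3.09 and 2.12. F3, tissue factor, rose from 0, 0.0701 and 0 CPM to 2.12, 0.652 and 0.380 CPM, with the first group at or near 0. The ratio was 55.6 with a 95% counting interval of 9.47 to 2248, and the call was lost without restimulated culture 1. Of 15 purinergic and adenosine genes 2 were higher and 2, Entpd1 and the P2rx7 described above, were lower. Adora2b and Adora2a, receptors for adenosine, rose by 2.86 and 3.33, the second call being lost without LPS 24h culture 2. Entpd1, the ectonucleotidase CD39, was lower at -1.70, with overlapping groups and a call lost without either of restimulated culture 1 and LPS 24h culture 1.

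Among the 12 genes with the highest log2 fold changes were also Slc1a2, Lrfn4, Ppef2 and Lad1, all at 0 or near it after LPS 24h. Lrfn4 had no read in the 3 LPS 24h cultures and 0.876, 1.16 and 0.304 CPM after restimulation, which is at least 13.8-fold higher when the LPS 24h group as a whole is set at 3 counts. Slc1a2, a glutamate transporter gene, went from 0.203, 0 and 0.0425 to 7.30, 4.71 and 7.74 CPM. The calls of these 4 were lost in 3, 3, 6 and 4 of the 6 fits without 1 culture: Slc1a2 without any one of restimulated culture 3, LPS 24h culture 2 and LPS 24h culture 3, Lrfn4 without any one of LPS 24h culture 1, LPS 24h culture 2 and LPS 24h culture 3, Lad1 without any one of restimulated culture 1, restimulated culture 2, LPS 24h culture 1 and LPS 24h culture 3, and Ppef2 with any of the 6 left out.

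The genes that fell most were expressed at low to moderate levels. Rab3il1, a regulator of Rab GTPases, was at 23.9, 45.1 and 27.4 CPM after LPS 24h and 1.17, 2.61 and 4.25 CPM after restimulation (log2 fold change -3.58, SE 0.512, adjusted p = 1.57e-05). Lpar6, a lysophosphatidic acid receptor gene, was at 34.2, 48.0 and 45.7 CPM after LPS 24h and 5.55, 5.80 and 5.01 CPM after restimulation (log2 fold change -2.96, SE 0.326, adjusted p = 2.15e-07). For Lpar6 the cultures within each group differed little and the groups stood far apart. Abcd2, a peroxisomal fatty acid transporter gene, and Timeless, a replication fork gene, fell by 3.54 and 3.49 on the log2 scale. Il4ra, the receptor for IL-4 and IL-13, was at 236, 262 and 245 CPM after LPS 24h and 75.9, 77.1 and 53.8 CPM after restimulation (log2 fold change -1.85, SE 0.326, adjusted p = 3.17e-04), the one gene called among 12 of alternative activation. Padi4 and Cxcr2, which neutrophils express strongly, fell by 3.63 and 4.11. Of 7 neutrophil markers tested only S100a9 was called, and it fell by 1.06 (adjusted p = 0.031). The summed neutrophil markers given above were lower in all 3 restimulated cultures. The part of neutrophils in the values of Padi4 and Cxcr2 was not tested. The call of Cxcr2 was lost without any one of restimulated culture 2, restimulated culture 3 and LPS 24h culture 2. Tspoap1, Tesk2, Gpr183, H2-T23, Rab27a and Bmf completed the 12 genes with the lowest values, between -4.36 and -2.84, and each lost its call when at least 1 culture was left out: Tspoap1 without any of restimulated culture 1, restimulated culture 2 and LPS 24h culture 3, Tesk2 without any one culture except LPS 24h culture 3, Gpr183 without either of restimulated culture 1 and restimulated culture 2, Rab27a without any of restimulated culture 1, restimulated culture 3 and LPS 24h culture 2 and Bmf without any one culture except LPS 24h culture 3. H2-T23 rested on LPS 24h culture 2, at 4.87, 79.6 and 7.81 CPM in the LPS 24h cultures, and its call was lost without any one of restimulated culture 1, restimulated culture 2, restimulated culture 3 and LPS 24h culture 2.

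The same comparison in WT cells asked whether any of this was particular to cells that cannot make itaconate. In WT, 474 genes were called (3.99%), 292 higher (2.46%) and 182 lower (1.53%). Of the 409 genes higher in Irg1-/- cells, 174 were also higher in WT, which is 42.5% of the Irg1-/- and 59.6% of the WT genes. The difference between the genotypes' responses was tested as an interaction, and 1 gene of 11878 passed (0.00842%), with 1029 at an unadjusted p under 0.05 and 55 called by DESeq2. None of the 615 tested list members was called. Genes called in one genotype only are thus not shown to differ between genotypes, and with 3 cultures a group the test leaves wide intervals. In WT cells the replicate number is also the library pool, shared by both treatments, so the numbers pair those cultures. With the replicate block, 436 genes were called in WT cells and 0 in the test of the difference. With the pool as a term these counts were 493 and 7, and the 7 held Plagl2, Ptgs2, Slc7a11, Slit2 and Fabp5.

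The genes with the next lowest p-values in the test of the difference went both ways, and none of them passed. Ptgs2 rose by 5.58 in Irg1-/- and by 2.54 in WT cells, a difference of 3.04 (SE 0.576, adjusted p = 0.0569). Slc7a11 rose by 3.40 and 1.35, a difference of 2.06 (SE 0.438, adjusted p = 0.0838). Fabp5, a fatty acid-binding protein gene, went from 1393, 3437 and 1341 CPM to 1072, 967 and 1039 CPM in Irg1-/- and from 1111, 862 and 487 CPM to 1440, 4065 and 2970 CPM in WT cultures, a difference of -2.79 (SE 0.559, adjusted p = 0.0681). For Ap2b1, a subunit of the clathrin adaptor AP-2, the values were -0.97 and 2.14, a difference of -3.11 (SE 0.656, adjusted p = 0.0838). For Slit2, a secreted guidance factor, the adjusted p was 0.0681, but it stood at 0.744, 0.771 and 0.807 CPM and 0.730, 0.507 and 5.31 CPM in Irg1-/- and at 2.19, 0.804 and 47.6 CPM and 0.346, 0 and 0 CPM in WT cultures, with restimulated Irg1-/- culture 3 and WT LPS 24h culture 3 far above the other cultures of their groups and the restimulated WT cultures at or near 0. Among list members with a larger p, the values of Cxcl2 were 4.39 and 2.47, a difference of 1.92 (SE 0.424, adjusted p = 0.0838). Those of Dusp16 were 2.67 and 0.81, a difference of 1.86 (SE 0.431, adjusted p = 0.0984). For Ch25h they were 4.45 and 1.02, with a difference of 3.43 (SE 0.877, adjusted p = 0.16). Tgtp2 went the other way, at -2.26 and 0.49, a difference of -2.75 (SE 0.721, adjusted p = 0.179). Ptgs2, Slc7a11, Cxcl2, Dusp16 and Ch25h were also named with their Irg1-/- response known, which favours a positive difference. For Mt2 (3.82 and 4.09), Clec4e (2.21 and 2.32), Ptges (2.65 and 2.79) and Hk2 (-1.45 and -1.43) the values nearly coincided, with 95% intervals of the difference of -1.47 to 0.92, -1.05 to 0.82, -1.15 to 0.88 and -0.79 to 0.76. The median difference over all genes tested was -0.01.

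The gene that passed was Plagl2, a zinc finger transcription factor gene (chromosome 2 from 153227759 to 153241426, minus strand, mm10). Irg1-/- cultures went from 134, 112 and 182 CPM to 299.8, 427 and 589 CPM, and WT cultures from 262, 393 and 1079 CPM to 193, 205 and 276 CPM. It rose by 1.62 in Irg1-/- cells, had a value of -1.36 in WT cells (adjusted p = 0.033), and the difference was 2.98 (SE 0.534, adjusted p = 0.0491). The call was lost in 9 of 12 fits without 1 culture, all except those without Irg1-/- restimulated culture 1 and WT LPS 24h cultures 1 and 2, and with another normalization, another filter, only the compared groups or a block for the replicate number. The count of genes called ranged from 0 to 25 over those 12 fits, with 25 without WT LPS 24h culture 1, 15 without WT LPS 24h culture 2 and 2 without restimulated WT culture 1.

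**Figure D4:**
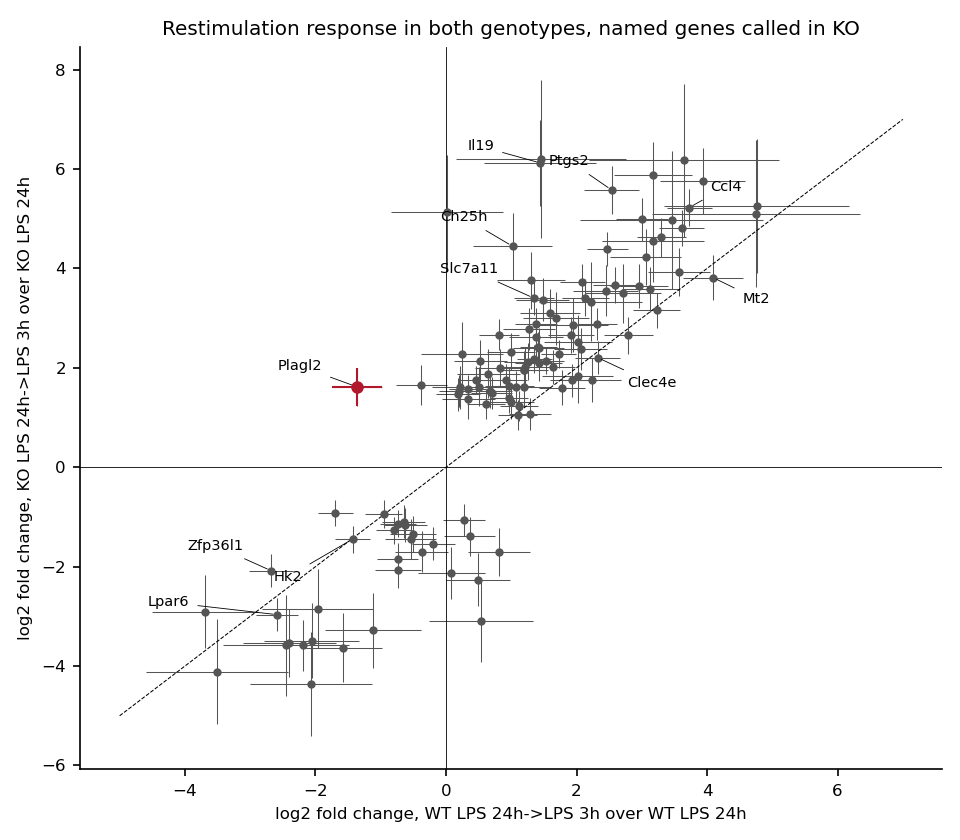
Log2 fold change on restimulation in WT (x axis) against Irg1-/- (y axis) BMDMs for the 117 named genes called in Irg1-/- cells, with bars of 1 SE and a dashed line of equal response. The genes were chosen on the Irg1-/- response, so an excess above the line is expected from the choice; Plagl2 (red) is the one gene whose difference passed the test, at 1.62 in Irg1-/- and -1.36 in WT cells.

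The second response was then set beside the first LPS response of Irg1-/- cells (LPS 3h against Unstim.), which shares no library with it. The first LPS called 4260 genes (35.9%), of which 2018 were higher (17.0%) and 2242 lower (18.9%). The LPS 3h cultures and the unstimulated cultures were in different library pools, so pool and first LPS cannot be told apart. Of the 409 genes higher on the second LPS, 330 were higher on the first (80.7% of the 409 and 16.4% of the 2018), 7 were lower and 72 were not called. Of the 202 lower genes, 121 were lower, 38 were higher and 43 were not called on the first. The test of the difference between the responses called 1704 genes (14.3%), with a larger value on the second LPS for 679 (5.72%) and a smaller one for 1025 (8.63%). The difference is signed, so genes that fell less on the second LPS than on the first count among the 679. Of the 679, 5 were called higher on both LPS doses and 35 on the second but not the first. With the pool as a term 1203 were called, 400 larger and 803 smaller, and 960 of them were among the 1704; without single cultures the larger count was 472 to 660. The median difference over all genes was 0.14.

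Most cytokine and chemokine genes had a smaller response to the second LPS. Of the 21 proinflammatory cytokines 20 were higher on the first LPS, and 14 had a smaller second response by the test of the difference. Of 11 CXC chemokines 8 were higher on the first LPS and 8 had a smaller second response, and of 13 CC chemokines 12 and 9. Tnf rose by 8.55 on the first and 4.62 on the second LPS, a difference of -3.92 (SE 0.509, adjusted p = 7.66e-07). Il6 rose by 4.23 on the second LPS, reaching 43.4, 21.9 and 37.3 CPM against 1251, 279.6 and 441 CPM after LPS 3h (difference -8.77, SE 1.07, adjusted p = 2.36e-07), and Il1b rose on the first and second LPS by 9.14 and 2.88 (difference -6.26, SE 0.464, adjusted p = 9.95e-12). Unstimulated Il6 was at 0.156, 0.188 and 0 CPM, at or near 0, so the size of its difference is not well determined. In CPM, Il1b was at 12.8, 6.97 and 10.3 unstimulated and at 6743, 6155 and 4151 after LPS 3h. Il1b thus started far higher before the second LPS than before the first. Ptgs2 (difference -3.38, SE 0.589, adjusted p = 8.24e-05), Ccl4 (difference -2.35, SE 0.445, adjusted p = 2.52e-04) and Cxcl2 (difference -4.40, SE 0.440, adjusted p = 5.17e-09) also had smaller second responses, and for Ptgs2 the restimulated level reached 2825, 1481 and 1721 CPM against 5063, 3648 and 3630 CPM after LPS 3h.

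Interferon-induced genes had a smaller response to the second LPS than to the first. Of 33 type I interferon targets, 32 were higher on the first LPS and 32 had a smaller second response, and for the guanylate-binding proteins and IRGs both counts were 16 of 17. Mx1 was at 10.6, 14.5 and 7.60 CPM unstimulated, 3142, 2547 and 2579 CPM after LPS 3h, 249, 262 and 608 CPM after LPS 24h and 112, 189 and 224 CPM after restimulation. The difference of the responses was -9.09 (SE 0.543, adjusted p = 1.98e-13). Cmpk2 also had a smaller second response, with 9052, 3595 and 4095 CPM after LPS 3h and 105, 158 and 167 CPM after restimulation (difference -8.35, SE 0.546, adjusted p = 1.01e-12). Calhm6, Trim30c, Gbp7 and Oasl1, which with Mx1 and Cmpk2 had the lowest p-values of this test, rose by 7.21, 7.93, 5.77 and 9.14 on the first LPS and had values of -0.48, -0.83, -0.76 and 0.25 on the second.

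A smaller set of genes answered the second LPS more than the first. Of the 79 genes higher on the second LPS but not on the first, 35 had a larger second response by the test. The 79 were chosen on these same 2 responses, which favours a larger second response, so the share of 35 is no separate evidence. Egr1 rose by 3.65 on the second LPS against 0.49 on the first (difference 3.16, SE 0.590, adjusted p = 2.04e-04), with 9.97, 8.86 and 4.44 CPM unstimulated, 11.3, 11.6 and 9.32 after LPS 3h, 1.35, 0.771 and 0.934 after LPS 24h and 11.0, 15.8 and 11.8 after restimulation. The restimulated Egr1 level was near that of LPS 3h cells, and the LPS 24h level was the lowest of the 4 groups. Gadd45a had values of 2.02 on the second and -0.54 on the first LPS (difference 2.56, SE 0.563, adjusted p = 0.00146). Ticam2 differed, with 12.2, 11.1 and 15.8 CPM unstimulated, 5.77, 7.30 and 8.79 after LPS 3h, 18.2, 17.6 and 16.7 after LPS 24h and 54.3, 66.2 and 56.4 after restimulation (difference 2.61, SE 0.458, adjusted p = 9.18e-05), so that its restimulated level exceeded that of all 3 other groups. Id3, an inhibitor of basic helix-loop-helix factors, rose by 4.59 on the second LPS and the aryl hydrocarbon receptor gene Ahr by 2.88. Among genes higher on both, Dusp4 was one of 5 with a larger second response, with 30.8, 25.2 and 25.5 CPM after LPS 3h and 144, 117 and 90.8 CPM after restimulation (difference 1.83, SE 0.467, adjusted p = 0.00626). Ptges reached 535, 545 and 430.1 CPM on restimulation against 47.0, 41.3 and 49.6 CPM after LPS 3h, yet its fold was smaller on the second LPS (difference -4.45, SE 0.637, adjusted p = 4.09e-06); the unstimulated cultures, at 0, 0 and 0.589 CPM, were at or near 0.

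**Figure D5:**
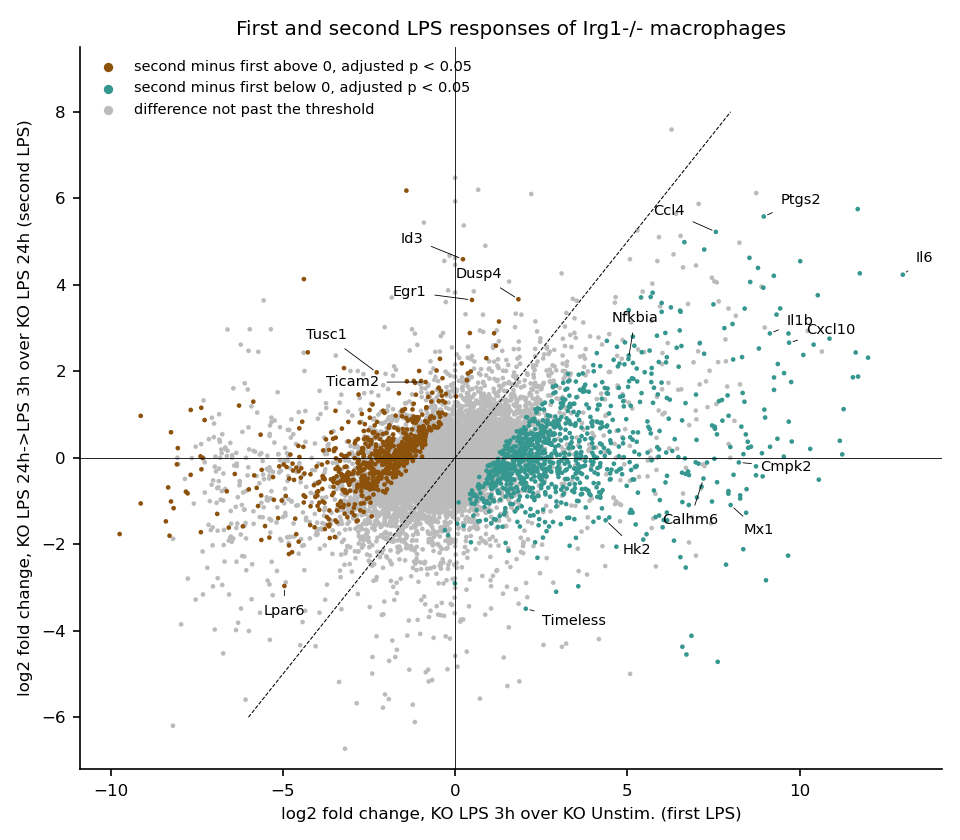
Log2 fold change on the first LPS (LPS 3h over Unstim., x axis) against the second LPS (LPS 24h->LPS 3h over LPS 24h, y axis) in Irg1-/- BMDMs for the 11878 genes tested, with a dashed line of equal response. Brown points (679) had a larger and green points (1025) a smaller signed value on the second LPS by the test of the difference. With the pool as a term these were 400 and 803. Genes that fell less on the second LPS than on the first are thus also brown. Mx1, Cmpk2 and Calhm6 lie near or below 0 on the y axis and Egr1 lies near 0 on the x axis.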

How the data were processed

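Bone marrow-derived macrophages of 8 groups (24 libraries) were profiled by RNA-seq of transcript ends. According to the study's methods and the labels, the authors made cDNA from mRNA with barcoded oligo-dT primers that carry no molecular identifier, pooled it, amplified it over 12 PCR cycles and aligned reads to mm10 with STAR; the counting program, the annotation and the strand setting are not given in the sources used here, so overlapping genes and paralogs are uncertain. The values used are the deposited read counts per gene, not normalized; 5 summary lines without a gene were left out. The library pool was read from a prefix of the labels, and in WT cells it pairs the same-numbered cultures.

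The quasi-likelihood test of edgeR 4.0.16 (R 4.3.3) was applied to the counts, with TMM factors and filterByExpr, in a model with 8 groups over all 24 libraries, with Benjamini-Hochberg adjustment over 11878 genes and a threshold of 0.05. The SE is the size of the log2 fold change divided by the square root of F. Symbols matched 21745 of 22165 genes. Ratios of genes near 0 have exact 95% counting intervals, with a floor of 3 counts per group. Members and lists were chosen with earlier results of these data known. Named were Acod1, the 12 highest and 12 lowest genes past the threshold without overlap and averaging 10 or more counts in the group with more, up to 5 called members of each list by size, genes the study assays otherwise, and the 6 lowest p-values of each test of a difference; Id3, Ahr and other list members without a call were named after their values were seen. Alternatives were DESeq2 1.42.0 (test and size factors), no filter or one at a mean count of 10, only the groups compared, a replicate block, the pool as a term or pool 1 alone, and each culture left out. Steps were tested on simulated counts. Values of a few list members are not reported here. Figures used Python 3.11.15, pandas 2.3.3 and matplotlib 3.10.9.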

Additional observations from a re-analysis of the deposited data

Results flagged for a closer look

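Plagl2 differed in its restimulation response between genotypes by 2.98 on the log2 scale, by the test of the difference itself (edgeR's quasi-likelihood test, adjusted p = 0.0491). It was the only one of 11878 genes to pass, and all 3 restimulated Irg1-/- cultures were above all 3 Irg1-/- LPS 24h cultures, whereas the WT groups overlapped, with WT LPS 24h culture 3 at 1079 CPM against 262 and 393 CPM in the other two. The size of the difference was 2.15 to 3.38 over the 12 fits without 1 culture, and the call was lost in 9 of them and with the replicate block. Groups of 3 cultures are too small to look for outlying cultures.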

How the results depend on the processing

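The count of genes called on restimulation kept within 1.5 times the reported 611 except with only the groups compared (1080, of which 594 were among the 611), without restimulated culture 2 (405) and without LPS 24h culture 2 (370); without single cultures it was 370 to 442. The count for the genotype difference, 1 gene, became 0 with DESeq2's size factors, with a mean of at least 10 counts, with only the groups compared and with the replicate block, 7 with the library pool as a term, 55 with DESeq2's test, 170 without a filter and 0 to 25 without single cultures; the cause was not tested. The count for second against first LPS, 1704, stayed within 1.5 times (1203 with the pool as a term, 1357 to 1754 without single cultures). However, its genes with a larger value on the second LPS went from 679 to 400 with the pool as a term. The WT count, 474, was 436 with the replicate block and 493 with the pool as a term, both chosen after seeing the data. The signs of 5 named genes without a call turned. Hmox1 came to -0.012 with the replicate block, -0.16 with the pool term, -0.26 within pool 1, and -0.25 to 0.24 without single cultures. Without single cultures Casp1 ranged from -0.12 to 0.50, Nos2 from -0.18 to 0.51, Slit2 from -0.30 to 2.00 and Cmpk2 from -0.35 to 0.11, and Cmpk2 was 0.10 within pool 1. Over all named genes and alternatives, 1818 values kept direction and call, 192 lost the call and 26 gained it. In WT cells the replicate numbers coincide with the library pool. Whether they pair the Irg1-/- cultures is not given in the sources used here. Same-numbered cultures correlated at 0.113, 0.0639 and 0.337 in Irg1-/- and 0.0839, 0.0624 and 0.264 in WT cells. Differently numbered cultures correlated at -0.233 to 0.147 in Irg1-/- and -0.229 to 0.194 in WT cells. These values do not settle whether the Irg1-/- cultures were paired. With the replicate block, 626 genes were called on restimulation, 575 of them among the 611. With 3 cultures a group precision is limited, and genes that did not pass are not shown to be unchanged.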
